A study of Mus musculus with 32 samples.

Results

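The 39 genes of DNA replication and S phase described here are named by their roles in copying the genome. The rule lists gene symbols and uses no measured value, but the list was chosen with earlier results of these data known. The counts of these genes below are therefore not those of a set picked blind to the data. The symbols were looked up in the authors' deposited read counts, which come as 1 table for each of 2 mouse cell lines. All 39 were found among the 27843 genes listed for AML12 and among the 55414 listed for HL-1, with the same gene ID in both. All 39 also passed the filter on low counts in each line, which left 14114 genes tested in AML12 and 14450 in HL-1. The 39 genes fall into 7 roles: origin licensing, helicase activation, polymerases and primase, clamp and lagging strand, nucleotide supply, regulators of S phase entry, and chromatin assembly.

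The series addresses rhythmic signalling from one cell type to another and holds 32 RNA-seq libraries in 8 groups of 4. AML12 is a mouse hepatocyte line, and its cells had either DEX, an abbreviation of the labels, or a control treatment, and were taken at 17 h or 25 h. HL-1 is described as a cardiomyocyte line, although 5 of 8 cardiomyocyte markers checked below were hardly counted in it. Its cells were given medium derived from AML12 cells, either a conditioned medium with DEX synchronization (CM) or a control medium lacking it. They were taken at 16 h or 28 h. The labels give no genetic change in either line, and both HL-1 groups received AML12-derived medium. Whether the 4 libraries of a group stem from different cultures is not stated, so p-values measure the spread between these libraries only, which may be technical.

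Before a cell copies its DNA, the origin recognition complex, Cdc6 and Cdt1 load the ring of Mcm2 to Mcm7 onto origins, and Cdc45 and the GINS proteins later turn that ring into the moving helicase. Primase and the polymerases then make the new strands, the clamp Pcna and its loader hold the polymerases in place, and Fen1 and Lig1 join the lagging strand pieces, while ribonucleotide reductase and the thymidylate enzymes supply the nucleotides. Many of these genes are known targets of the E2F transcription factors, which cyclin E and its kinase help to release from pocket proteins at the G1/S boundary. AML12 and HL-1 cells both divide in culture, whereas most hepatocytes of a resting liver and most adult cardiomyocytes do not.

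Promoters are shown for 4 members, with and without E2F-type elements, a feature that the rule did not use and that 11 of 33 matched members had. RefSeq promoter windows on GRCm38.p6, from 250 bases before to 50 bases after the start of transcription, were matched for 33 of the 39 members. The words TTTCCCGC, TTTGGCGC, TTTCGCGC and TTTGCCGC were searched on both strands. At least 1 of them lay in 11 of the 33 windows (33.3%), against 2.32% of 27025 windows in all, and a word on 1 strand can overlap a word on the other. The words were found for Orc1, Cdc6, Cdt1, Mcm3, Mcm5, Mcm6, Mcm7, Gins3, Pola1, Pold1 and Rfc3. The pentamer CCAAT was found on either strand in 20 of the 33 (60.6%), against 37.9% of all windows. Each line below gives 200 bases 5′ to 3′ on the strand of the gene, with the E2F-type words in capitals. The windows are chr8:75109309-75109508 on the plus strand for Mcm5, chr1:128359706-128359905 on the minus strand for Mcm6, chrX:93632156-93632355 on the minus strand for Pola1 and chr12:24708041-24708240 on the plus strand for Rrm2.
Mcm5: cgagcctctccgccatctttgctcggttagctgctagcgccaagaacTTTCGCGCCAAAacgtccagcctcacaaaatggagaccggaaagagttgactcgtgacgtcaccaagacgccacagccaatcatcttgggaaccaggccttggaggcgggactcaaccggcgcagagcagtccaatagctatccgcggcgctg
Mcm6: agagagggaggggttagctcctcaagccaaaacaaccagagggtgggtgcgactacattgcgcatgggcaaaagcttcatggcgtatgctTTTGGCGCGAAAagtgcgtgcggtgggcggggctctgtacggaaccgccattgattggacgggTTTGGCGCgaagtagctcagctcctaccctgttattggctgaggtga
Pola1: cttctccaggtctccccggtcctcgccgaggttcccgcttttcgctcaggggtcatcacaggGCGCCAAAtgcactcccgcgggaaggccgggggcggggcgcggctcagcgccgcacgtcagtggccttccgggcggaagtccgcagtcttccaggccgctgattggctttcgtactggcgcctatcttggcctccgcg
Rrm2: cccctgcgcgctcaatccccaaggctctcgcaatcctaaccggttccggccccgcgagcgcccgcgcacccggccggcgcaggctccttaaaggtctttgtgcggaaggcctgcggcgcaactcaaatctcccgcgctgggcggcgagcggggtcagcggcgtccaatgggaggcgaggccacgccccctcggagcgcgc

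Mcm5 and Mcm6, a pair of helicase subunits, each carry overlapping words on opposite strands, and Mcm6 carries a further one 3′ of them. Pola1, the catalytic subunit of polymerase alpha, has a single word. Rrm2, the small subunit of ribonucleotide reductase, has none of these 4 words in its window, and its DEX response at 17 h, given below, was the largest of the 39. The members with such a word had a median log2 fold change of 0.48 under DEX at 17 h (n = 11) and those without it 0.58 (n = 22). At 25 h these medians were 0.55 and 0.58. A match is a description of letters and not a binding site.

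An AML12 library held 15.0 M to 17.5 M counts in all, and an HL-1 library 15.7 M to 19.3 M. In HL-1 the CM libraries held more counts than the controls, with means of 18.6 M against 16.3 M at 16 h and 18.2 M against 16.6 M at 28 h. The label hepatocyte was checked against 8 marker genes, of which 6 were listed in AML12; Alb, Ttr, Apoa1 and Cps1 averaged under 1 CPM (counts per 1000000 counts of the library) in control cells, and the 6 summed to 279.6 to 293 CPM in DEX cells and 379.96 to 417 CPM in control cells at 17 h. Of 8 cardiomyocyte markers, Actn2, Myh6, Myl7, Nppa and Ryr2 averaged under 1 CPM in every HL-1 group, while Des, Gja1 and Tnnt2 did not, with means of 427, 439.6 and 38.6 CPM in CM cells and 380.03, 509.6 and 23.7 CPM in control cells at 16 h. The 8 summed to 883 to 932 CPM in CM cells and 884 to 932 CPM in control cells at 16 h. The 5 low markers do not bear out the name cardiomyocyte. The mesenchymal markers Vim, Col1a1, Col3a1 and Pdgfra summed to 7049.7 to 7673 CPM in CM cells and 6943 to 8092 CPM in control cells at 16 h. Of 4 immune markers Cd3e, Adgre1 and Ptprc were under 1 CPM in every HL-1 group, and Cd68 averaged 1.64 to 2.54 CPM. Measured as chi-square per degree of freedom over genes, the distance of DEX 17 h replicate 2 to the other 3 libraries of its group was 13.7 to 18.2, and that of HL-1 control 16 h replicate 3 was 8.06 to 16.7.

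DEX-treated AML12 cells carried more replication transcripts than control cells at both times. At 17 h the 39 genes together took up 0.276% ± 0.00799 of all counts in DEX cells and 0.182% ± 0.00846 in control cells (mean ± SD, n = 4 each). At 25 h they took up 0.199% ± 0.0167 in DEX cells and 0.129% ± 0.00443 in control cells. The lowest DEX library lay above the highest control library at each time. In whole-culture RNA, more cells in S phase and more RNA of these genes per cell cannot be told apart.

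**Figure D1:**
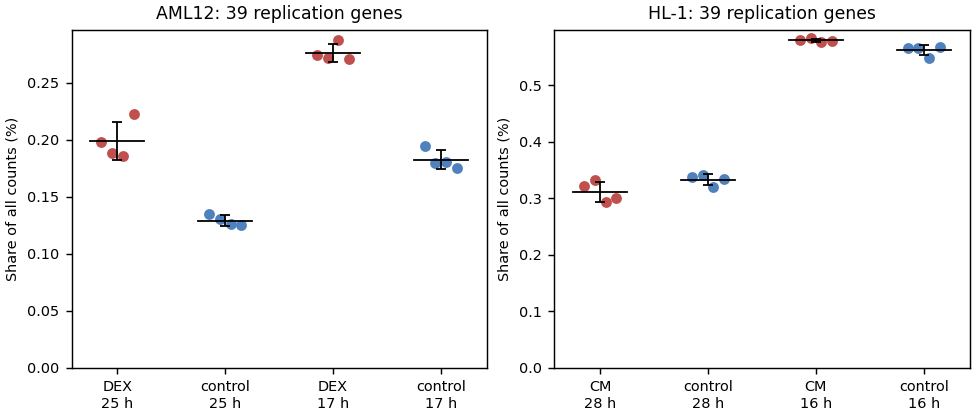
Share of all counts (%, linear axis from 0) that fell on the 39 replication genes, per library (points), with the group mean (long bar) and SD (short bars), n = 4 libraries a group; AML12 left, HL-1 right. The DEX groups lie above their controls at both times, at 0.276% against 0.182% at 17 h, while CM and control cells of HL-1 lie close together at 0.580% and 0.562% at 16 h and at 0.312% and 0.333% at 28 h.

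Of the 39 genes, 37 rose and 0 fell under DEX at 17 h, where 20.5% of all tested genes were called higher (edgeR's quasi-likelihood test, 4 libraries a group, Benjamini-Hochberg adjusted p under 0.05 over all genes tested). The median log2 fold change of the 39 was 0.56, a 1.47-fold higher level, and that of all tested genes was 0.00. In 37 genes the 4 DEX libraries all lay above the 4 control libraries, which held for 18.3% of all genes. At 25 h 38 rose and 0 fell, where 6.79% of all genes were called higher, with a median of 0.59. The libraries did not overlap for 36 genes at 25 h, against 9.57% of all genes. DEX 25 h replicate 4 was the highest of its group for 29 of the 39 genes, and without it 36 rose at 25 h; without DEX 17 h replicate 2, 37 rose at 17 h. Fold changes are given below as log2 values ± SE from this test, and levels as CPM of the 4 libraries in the order of their replicate numbers, scaled by TMM.

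**Figure D2:**
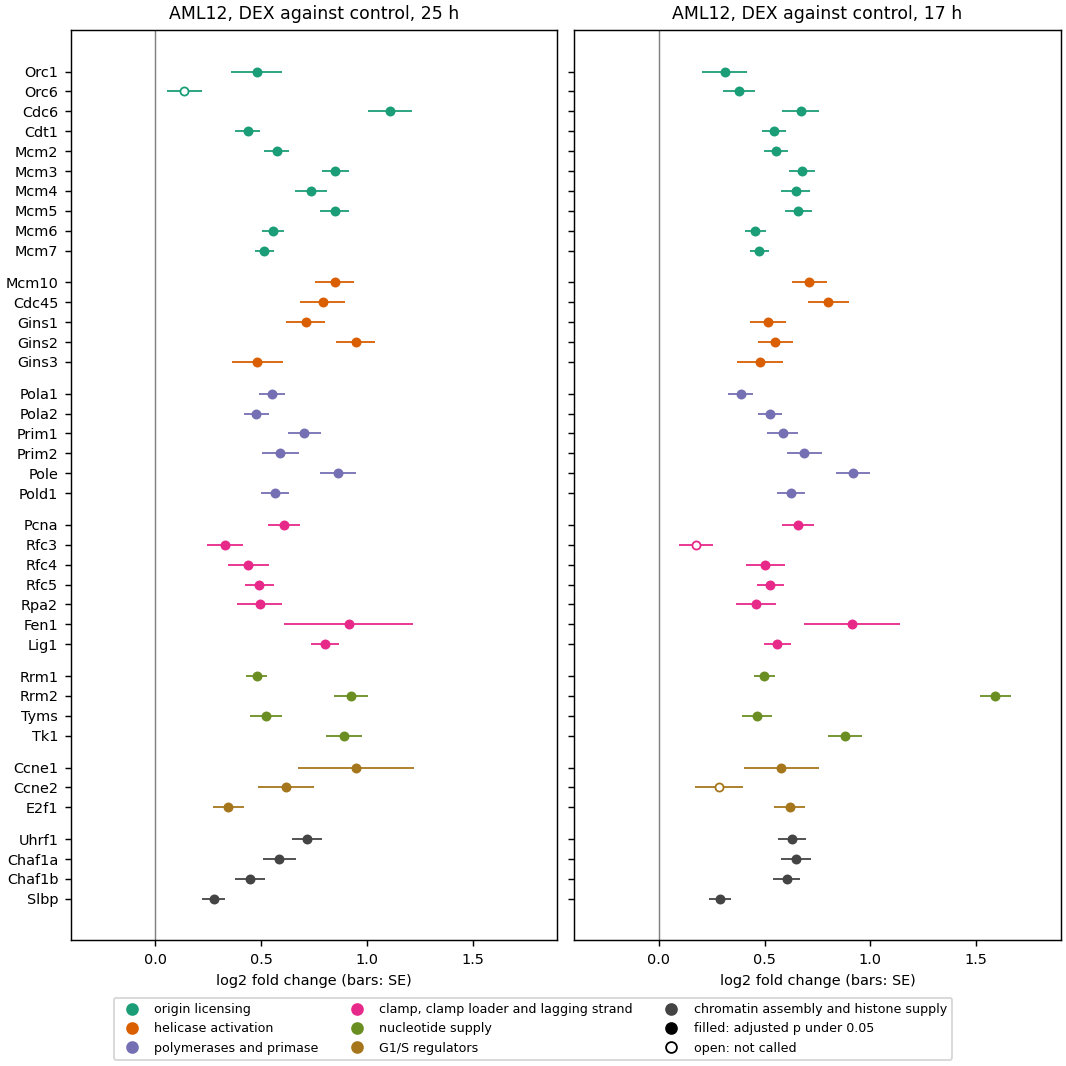
Log2 fold change of each of the 39 genes in DEX against control AML12 cells at 25 h (left) and 17 h (right), with bars of 1 SE (edgeR's quasi-likelihood fit, n = 4 a group); colours give the role and open points did not pass an adjusted p of 0.05. All points lie right of 0, Rrm2 stands apart at 17 h with 1.59, and Cdc6 leads at 25 h with 1.11.

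All 10 licensing genes rose at 17 h and 9 of them at 25 h, with medians of 0.55 and 0.57. Cdc6 (chr11:98907801-98923940, plus strand, GENCODE M21 on GRCm38), the ATPase that recruits the helicase ring to origins, had 22.1, 22.2, 24.8 and 23.6 CPM in DEX cells, against 16.0, 14.8, 14.0 and 13.5 CPM in control cells at 17 h. At 25 h it had 14.8, 15.0, 13.4 and 15.1 CPM in DEX cells, against 8.83, 6.55, 5.84 and 5.96 CPM in control cells. The groups did not overlap at either time, and control 25 h replicate 1 stood above the other 3 controls. Cdc6 rose by 0.67 ± 0.09 at 17 h (adjusted p = 1.13e-06) and by 1.11 ± 0.10 at 25 h (adjusted p = 1.03e-07). The second value was the largest of the 39 genes at 25 h.

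Mcm3, a subunit of the helicase ring, had 130.2, 138, 144 and 122 CPM in DEX cells, against 91.0, 81.4, 80.0 and 81.5 CPM in control cells at 17 h. At 25 h Mcm3 had 93.1, 81.6, 78.6 and 91.9 CPM in DEX cells, against 49.9, 45.1, 51.9 and 44.6 CPM in control cells. Every DEX library lay above every control library at both times, and the rise was 0.68 ± 0.06 at 17 h and 0.85 ± 0.07 at 25 h. The other 5 ring subunits rose too: Mcm5 by 0.66 ± 0.06 and 0.85 ± 0.07, Mcm4 by 0.65 ± 0.07 and 0.73 ± 0.08, Mcm2 by 0.55 ± 0.06 and 0.57 ± 0.06, Mcm7 by 0.47 ± 0.05 and 0.52 ± 0.05 and Mcm6 by 0.46 ± 0.05 and 0.56 ± 0.05, at 17 h and 25 h in that order. Mcm6 and Mcm7 moved least of the 6. Cdt1, which hands the ring to the origin complex and is degraded once S phase begins, rose by 0.55 ± 0.06 at 17 h and 0.44 ± 0.06 at 25 h.

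At 17 h the origin complex genes changed least in this role. Orc1, its ATP-binding subunit, had 9.07, 8.24, 6.77 and 8.58 CPM in DEX cells, against 6.16, 6.43, 7.71 and 5.99 CPM in control cells at 17 h. Replicate 3 broke the order in both groups, as the lowest DEX and the highest control library, and the call at 0.31 ± 0.11 (adjusted p = 0.0255) was lost in 7 of 16 other fits, with DESeq2 (adjusted p = 0.0512), with no filter on low counts (adjusted p = 0.0521) and in 5 of the 8 that left out 1 library, reaching an adjusted p of 0.103 without DEX 17 h replicate 1. At 25 h Orc1 rose by 0.48 ± 0.12. Orc6, the smallest subunit, rose by 0.38 ± 0.08 at 17 h and did not pass at 25 h, where it had 21.9, 16.2, 20.1 and 21.1 CPM in DEX cells, against 19.5, 17.4, 17.5 and 17.8 CPM in control cells. There DEX replicate 2 lay below all 4 controls and the other 3 lay above them, at a log2 fold change of 0.14 ± 0.08 with a 95% interval of -0.03 to 0.31.

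The 5 helicase activation genes rose at both times, with medians of 0.55 at 17 h and 0.79 at 25 h. Mcm10, which helps to start the assembled helicase, had 33.0, 36.9, 34.7 and 30.9 CPM in DEX cells, against 21.3, 20.6, 21.0 and 19.8 CPM in control cells at 17 h. At 25 h it had 21.4, 19.3, 20.1 and 27.5 CPM in DEX cells, against 12.7, 11.4, 12.7 and 12.2 CPM in control cells, with DEX replicate 4 above the other 3. No library crossed between the groups, and the rises were 0.71 ± 0.08 and 0.85 ± 0.09. Cdc45, a partner of the ring in the active helicase, rose by 0.80 ± 0.10 at 17 h and 0.79 ± 0.11 at 25 h. Gins2, Gins1 and Gins3, subunits of the GINS complex, rose by 0.55 ± 0.08, 0.52 ± 0.09 and 0.48 ± 0.11 at 17 h and by 0.95 ± 0.09, 0.71 ± 0.09 and 0.48 ± 0.12 at 25 h.

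All 6 polymerase and primase genes rose at both times, with medians of 0.61 and 0.58. Pole, the catalytic subunit of the leading strand polymerase epsilon, had 80.1, 95.6, 88.4 and 74.1 CPM in DEX cells, against 49.2, 46.9, 42.1 and 41.2 CPM in control cells at 17 h. Every DEX library was far above the control range, and the rise of 0.92 ± 0.08 (adjusted p = 1.69e-09) was followed by one of 0.86 ± 0.08 at 25 h. Pold1, the catalytic subunit of the lagging strand polymerase delta, rose by 0.63 ± 0.07 and 0.56 ± 0.07. Prim2 and Prim1, the large and the catalytic primase subunits, rose by 0.69 ± 0.08 and 0.59 ± 0.07 at 17 h and by 0.59 ± 0.09 and 0.70 ± 0.08 at 25 h. Pola2, the accessory subunit of polymerase alpha, rose by 0.53 ± 0.06 and 0.48 ± 0.06, and Pola1 by 0.39 ± 0.06 and 0.55 ± 0.06.

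Of the 7 clamp and lagging strand genes, 6 rose at 17 h and 7 at 25 h, with medians of 0.53 and 0.49. Pcna, the sliding clamp, had 202, 177, 209 and 185 CPM in DEX cells, against 129, 119, 123 and 118 CPM in control cells at 17 h. At 25 h Pcna had 112, 113, 117 and 147 CPM in DEX cells, against 77.3, 88.6, 70.0 and 84.9 CPM in control cells. DEX 25 h replicate 4 stood well above the other 3, which also lay above every control, with rises of 0.66 ± 0.07 and 0.61 ± 0.08. Lig1, the ligase that seals lagging strand pieces, rose by 0.56 ± 0.06 and 0.80 ± 0.07. Rpa2, a subunit of the single strand binding protein, rose by 0.46 ± 0.09 and 0.49 ± 0.11.

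Rfc3, Rfc4 and Rfc5 encode small subunits of the clamp loader. Rfc3 (chr5:151642756-151651242, minus strand) had 17.3, 19.2, 19.7 and 19.3 CPM in DEX cells, against 17.5, 16.9, 16.8 and 15.5 CPM in control cells at 17 h. Its lowest DEX library fell inside the control range, and the fold change of 0.18 ± 0.08 did not pass (adjusted p = 0.0838, 95% interval 0.01 to 0.34). At 25 h Rfc3 rose by 0.33 ± 0.09 (adjusted p = 0.0109), a call lost without DEX 25 h replicate 4 (adjusted p = 0.0776) and without control 25 h replicate 1 (adjusted p = 0.0508). Rfc5 rose by 0.53 ± 0.06 and 0.49 ± 0.07 and Rfc4 by 0.50 ± 0.09 and 0.44 ± 0.10, at 17 h and 25 h.

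Fen1, the nuclease that trims lagging strand flaps, was the least counted of this role. At 17 h it had 2.54, 2.41, 2.20 and 2.65 CPM in DEX cells, against 2.05, 1.10, 1.03 and 1.05 CPM in control cells, where control replicate 1 stood apart from the other 3 controls and still lay under the lowest DEX library. At 25 h it had 0.88, 0.981, 1.37 and 1.71 CPM in DEX cells, against 1.01, 0.485, 0.554 and 0.579 CPM in control cells, and the groups overlapped. Its rise of 0.91 ± 0.23 at 17 h was followed by 0.91 ± 0.31 at 25 h (adjusted p = 0.0465), a call lost in 8 of 16 other fits, reaching an adjusted p of 0.208 without DEX 25 h replicate 4. In GENCODE M21, 84.2% of the exon bases of Fen1 lie over genes on the other strand, Gm10143 and Tmem258. Gins2 (67.3%, Gse1) and Chaf1a (52.5%, Ubxn6) also lie over opposite-strand genes for more than 25% of their exon bases. The strand setting of the counting is not given in the sources used here, so the reads of such overlapping genes cannot be told apart.

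All 4 nucleotide supply genes rose at both times, with medians of 0.69 and 0.71. Rrm2 (chr12:24708241-24714146, plus strand), the subunit that limits ribonucleotide reductase, had 209, 232, 214 and 209.9 CPM in DEX cells, against 78.9, 69.1, 71.0 and 68.4 CPM in control cells at 17 h. At 25 h Rrm2 had 79.0, 76.2, 78.7 and 104 CPM in DEX cells, against 45.2, 48.4, 44.5 and 39.6 CPM in control cells. The DEX libraries at 17 h were all far above the controls and close to each other, whereas at 25 h DEX replicate 4 stood above the other 3. Rrm2 rose by 1.59 ± 0.07 at 17 h (adjusted p = 1.83e-14) and by 0.92 ± 0.08 at 25 h (adjusted p = 4.36e-08). Rrm1, its large partner subunit, rose by 0.50 ± 0.05 and 0.48 ± 0.05, and Tyms, which makes thymidylate, by 0.46 ± 0.07 and 0.52 ± 0.08. Tk1, the thymidine kinase of dividing cells, had 62.7, 58.6, 70.7 and 63.0 CPM in DEX cells, against 37.5, 36.0, 32.4 and 32.6 CPM in control cells at 17 h, with no overlap, and rose by 0.88 ± 0.08 and 0.89 ± 0.09.

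Among the regulators of S phase entry, 2 of 3 rose at 17 h and 3 of 3 at 25 h. E2f1 (chr2:154559407-154569892, minus strand), an activating E2F factor, had 41.4, 43.9, 48.3 and 39.3 CPM in DEX cells, against 26.5, 30.3, 28.4 and 27.4 CPM in control cells at 17 h. At 25 h it had 33.6, 35.8, 31.7 and 37.5 CPM in DEX cells, against 30.5, 26.6, 23.7 and 28.5 CPM in control cells. The groups stood clearly apart at 17 h and only narrowly at 25 h, with rises of 0.62 ± 0.07 and 0.35 ± 0.08. Ccne1, a cyclin E gene, had 1.06, 0.981, 1.49 and 1.16 CPM in DEX cells, against 0.876, 0.364, 0.615 and 0.579 CPM in control cells at 25 h. These are low levels with a wide spread, and its rises of 0.58 ± 0.18 and 0.95 ± 0.27 carried adjusted p of 0.0109 and 0.0183. Without control 17 h replicate 4 the first was not called (adjusted p = 0.0610), and 3 of the 8 fits without 1 library lost the second, reaching an adjusted p of 0.0883 without control 25 h replicate 2.

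Ccne2, the other cyclin E gene, had 6.71, 7.22, 6.96 and 7.53 CPM in DEX cells, against 6.67, 5.00, 5.31 and 6.34 CPM in control cells at 17 h. The lowest DEX library was just above the highest control, and the fold change of 0.28 ± 0.11 missed the threshold (adjusted p = 0.0508, 95% interval 0.05 to 0.52). It was called by limma-voom (adjusted p = 0.0423) and without control 17 h replicate 1 (adjusted p = 0.0289). At 25 h Ccne2 rose by 0.62 ± 0.13 (adjusted p = 0.0023).

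The 4 chromatin genes rose at both times, with medians of 0.62 and 0.52. Uhrf1 (chr17:56303321-56323486, plus strand), which reads hemimethylated DNA behind the fork, had 143, 128, 157 and 135 CPM in DEX cells, against 101, 90.4, 89.5 and 82.9 CPM in control cells at 17 h, with all DEX libraries above the controls. It rose by 0.63 ± 0.07 at 17 h and 0.72 ± 0.07 at 25 h. Chaf1a and Chaf1b, subunits of the histone chaperone CAF-1, rose by 0.65 ± 0.07 and 0.60 ± 0.06 at 17 h and by 0.59 ± 0.08 and 0.45 ± 0.07 at 25 h. Slbp, which binds the stem-loop of histone mRNA, rose least of this role, by 0.29 ± 0.05 and 0.28 ± 0.05.

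Markers of other cell types were set beside these rises. Of 3 bile duct markers listed in AML12, 2 rose at 17 h (Krt7 by 0.77 ± 0.04, Krt19 by 0.27 ± 0.04) and 1 at 25 h (Krt7 by 0.20 ± 0.04). Their summed level was 2360.3 to 2579 CPM in DEX cells and 1760.3 to 1959.8 CPM in control cells at 17 h, and 2129 to 2230.3 CPM in DEX cells and 2237 to 2289.8 CPM in control cells at 25 h. Of 5 tested hepatocyte markers 3 rose and 2 fell at 17 h, and 2, Alb and Ttr, rose at 25 h. The risers at 17 h were low: Alb had a mean of 1.83 CPM in DEX cells and 0.682 CPM in control cells. Ttr had 1.93 and 0.593 CPM in these groups and Apoa1 1.83 and 0.679 CPM. The markers that fell were Hnf4a, with 148 and 215 CPM, and Apob, with 133 and 174 CPM. Of 3 tested cardiomyocyte markers 1 rose and 1 fell at 17 h and 2 rose at 25 h, while Myh6 was under 1 CPM in every AML12 group and was not tested. Of 2 tested mesenchymal markers 0 were called at 17 h and 1 rose at 25 h. Of the immune markers Cd3e and Ptprc were under 1 CPM in every AML12 group. Cd68 had 3.87 to 5.07 CPM in DEX cells and 3.59 to 4.22 CPM in control cells at 17 h, and 2.55 to 3.06 CPM in DEX cells and 2.09 to 2.89 CPM in control cells at 25 h (log2 fold changes 0.23 ± 0.12 and 0.20 ± 0.14, neither called). The part of these genes in the replication result was not tested.

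The size of the DEX effect differed between the times for 3 of the 39 genes, by a test of the difference itself. Rrm2 had the smaller effect at 25 h, with a difference (25 h minus 17 h) of -0.67 ± 0.11 (adjusted p = 7.63e-05). Cdc6 had the larger effect at 25 h, with a difference of 0.44 ± 0.14 (adjusted p = 0.028), and so did Gins2, with 0.40 ± 0.13 (adjusted p = 0.0312). Over all genes 7.91% had a larger and 8.27% a smaller signed effect at 25 h, so 3 of 39 is not above the background. Gins2 had 14.1, 14.0, 12.5 and 15.1 CPM in DEX cells at 25 h, against 7.28, 7.40, 6.64 and 7.58 CPM in control cells, and 17.1, 15.0, 19.3 and 16.5 CPM in DEX cells at 17 h, against 12.3, 12.2, 10.9 and 11.1 CPM in control cells. Both treatments had less Gins2 at 25 h, the controls by more. Over the 16 fits without 1 library each, the Rrm2 difference was always called, that of Cdc6 was lost in 6, at most at an adjusted p of 0.0818, when control 25 h replicate 3 was left out, and that of Gins2 was lost in 10, at most at an adjusted p of 0.0788 under the same omission. Across the 39 genes the 17 h and 25 h effects had a Pearson's r of 0.612 and a Spearman's rho of 0.694, a description over genes of the same 16 libraries, which share scaling and annotation.

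**Figure D3:**
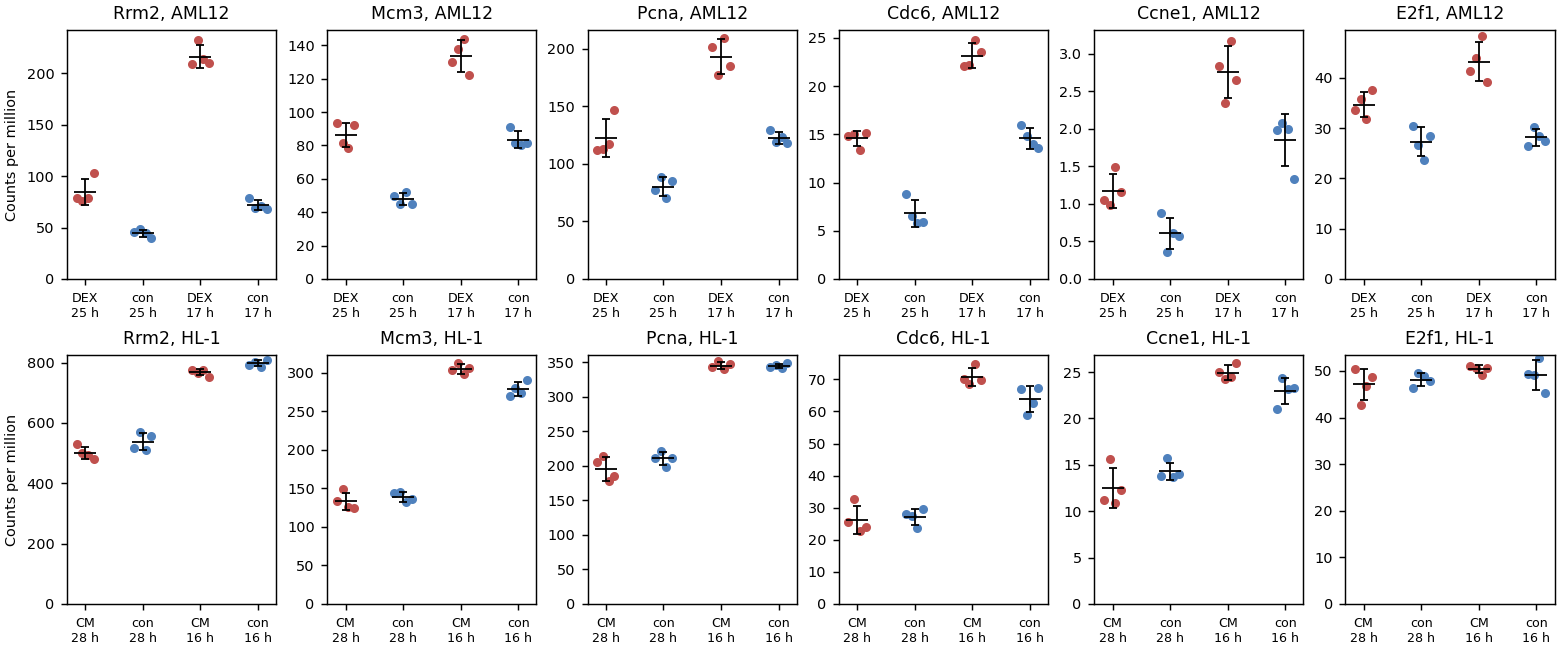
CPM (linear axes from 0) of 6 of the 39 genes in every library, AML12 in the upper row and HL-1 in the lower; points are libraries, the long bar is the mean and the short bars are SD, n = 4 a group (con: control). Rrm2 in AML12 shows the 17 h DEX libraries near 209 to 232 CPM, and E2f1 in HL-1 lies between 42.6 and 52.8 CPM in every group.

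Genes of the same pathway outside the 39 were looked at in 6 lists of 72 genes, 71 of them tested in AML12. At 17 h 48 rose and 3 fell, and at 25 h 37 rose and 1 fell. Over all 14114 tested genes 20.5% were called higher at 17 h and 6.79% at 25 h, and 5419 and 1658 were called in either direction. Of 13 other licensing and firing genes 10 rose at 17 h and 8 at 25 h, with Topbp1, a firing scaffold, at 0.55 ± 0.04 and 0.51 ± 0.04 and the kinase gene Cdc7 at 0.83 ± 0.11 and 0.79 ± 0.11. Of 21 other fork genes 17 rose at 17 h and 14 at 25 h, among them the checkpoint adaptor Clspn (0.80 ± 0.09 and 0.93 ± 0.10). Of the 6 other nucleotide genes, 4 rose at 17 h and 3 at 25 h. Of 7 other chromatin genes 5 rose at each time, with the histone chaperone Asf1b at 1.03 ± 0.08 and 0.76 ± 0.09.

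Among 18 further cyclin, CDK, E2F and pocket protein genes, 10 rose and 1 fell at 17 h, and 6 rose and 0 fell at 25 h. Ccna2, the S phase cyclin, rose by 0.92 ± 0.08 and 0.67 ± 0.08, and E2f7, a repressor E2F, by 1.05 ± 0.10 and 0.82 ± 0.12. E2f2 rose by 1.12 ± 0.11 at 17 h, and the difference of its effects, 25 h minus 17 h, was -0.92 ± 0.16 (adjusted p = 0.000207). The 6 tested CDK inhibitors, which hold cells before S phase, did not move together. At 17 h Cdkn2b (-0.49 ± 0.05) and Cdkn2a (-0.33 ± 0.08) fell and Cdkn2c (0.57 ± 0.08) and Cdkn2d (0.51 ± 0.07) rose. At 25 h Cdkn1a fell by 0.44 ± 0.06 on the log2 scale and Cdkn2c rose by 0.28 ± 0.09.

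The replication genes were lower at 25 h than at 17 h in AML12 cells with and without DEX. In DEX cells 36 of the 39 were lower at 25 h and 0 higher, where 28.2% of all genes were called lower, with a median of -0.49. In control cells 37 were lower and 0 higher, where 21.4% of all genes were called lower, with a median of -0.50. These contrasts use the same libraries as the DEX comparisons and are no separate evidence on them. The largest drop in DEX cells was that of Rrm2 (-1.36 ± 0.07), followed by Ccne1 (-1.23 ± 0.20), and in control cells that of Ccne1 (-1.60 ± 0.26), followed by Cdc6 (-1.11 ± 0.10). Ccne1 had 0.876, 0.364, 0.615 and 0.579 CPM in control cells at 25 h, against 1.99, 2.08, 2.00 and 1.34 CPM at 17 h, with no library of one time inside the range of the other. The polymerase and primase genes had the smallest median of the 7 roles, -0.30 in DEX cells and -0.31 in control cells, while those of the other roles lay between -0.57 and -0.43 in DEX cells and between -0.88 and -0.46 in control cells. Within the licensing role the drops ran from -0.67 to -0.07 in DEX cells and from -1.11 for Cdc6 to -0.17 for Mcm6 in control cells. Fen1, in the lagging strand role, changed by -0.99 ± 0.23 in DEX cells and -0.99 ± 0.30 in control cells. Without control 17 h replicate 1 the control value was -0.70 and not called (adjusted p = 0.0602), and Mcm6 in control cells was lost too (adjusted p = 0.0530). Rfc4 in control cells was lost without control 25 h replicate 2 (adjusted p = 0.0529), and Lig1 in DEX cells without replicate 3 of DEX 17 h (adjusted p = 0.0699) or of DEX 25 h (adjusted p = 0.0769). Of the 14 tested markers of cell types, 3 were higher at 25 h and 5 lower in DEX cells, and 2 were higher and 2 lower in control cells. They included the hepatocyte marker Hnf4a (0.68 ± 0.04 in DEX cells), the bile duct marker Krt7 (-0.30 ± 0.04 in DEX and 0.28 ± 0.04 in control cells) and the immune marker Cd68 (-0.64 ± 0.13 and -0.61 ± 0.14). The other hepatocyte markers did not move together in DEX cells. Apoa1 was lower (-0.85 ± 0.21), Apob was higher (0.19 ± 0.07), and Alb and Ttr were not called. In control cells 0 of the 5 tested hepatocyte markers were called. The part of the cell type markers in the drop of the replication genes was not tested.

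Pold1 had 50.9, 52.3, 46.7 and 44.1 CPM in control cells at 25 h, against 47.8, 45.2, 46.2 and 46.2 CPM at 17 h, and the ranges overlapped (0.06 ± 0.07, adjusted p = 0.481). In DEX cells Pold1 (0.00 ± 0.06), Pola1 (-0.01 ± 0.06) and Mcm6 (-0.07 ± 0.05) did not pass. E2f1 fell by 0.32 ± 0.07 on the log2 scale in DEX cells and did not pass in control cells (-0.04 ± 0.08); the difference between these, -0.27 ± 0.10, was not called (adjusted p = 0.082), but it was called in 3 of the 16 fits without 1 library, with adjusted p down to 0.0252. By group mean 38 of the 39 genes were highest in DEX cells at 17 h and lowest in control cells at 25 h. The exception is Pold1, highest in DEX cells at 25 h and lowest in control cells at 17 h. How many of all genes had the order of the 38 was not computed.

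DEX cells at 25 h had a higher mean than control cells at 17 h for 24 of the 39 genes besides Pold1 and a lower one for 14. Rrm2 had 84.4 ± 12.8 CPM in DEX cells at 25 h and 71.8 ± 4.82 CPM in control cells at 17 h (mean ± SD, n = 4 each). Pcna had 122 ± 16.5 and 122 ± 5.04 CPM in these groups, and Ccne1 1.17 ± 0.225 and 1.85 ± 0.345 CPM. Treatment and time differ at once between these groups, the difference was not tested, and the counts were not made for all genes.

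**Figure D4:**
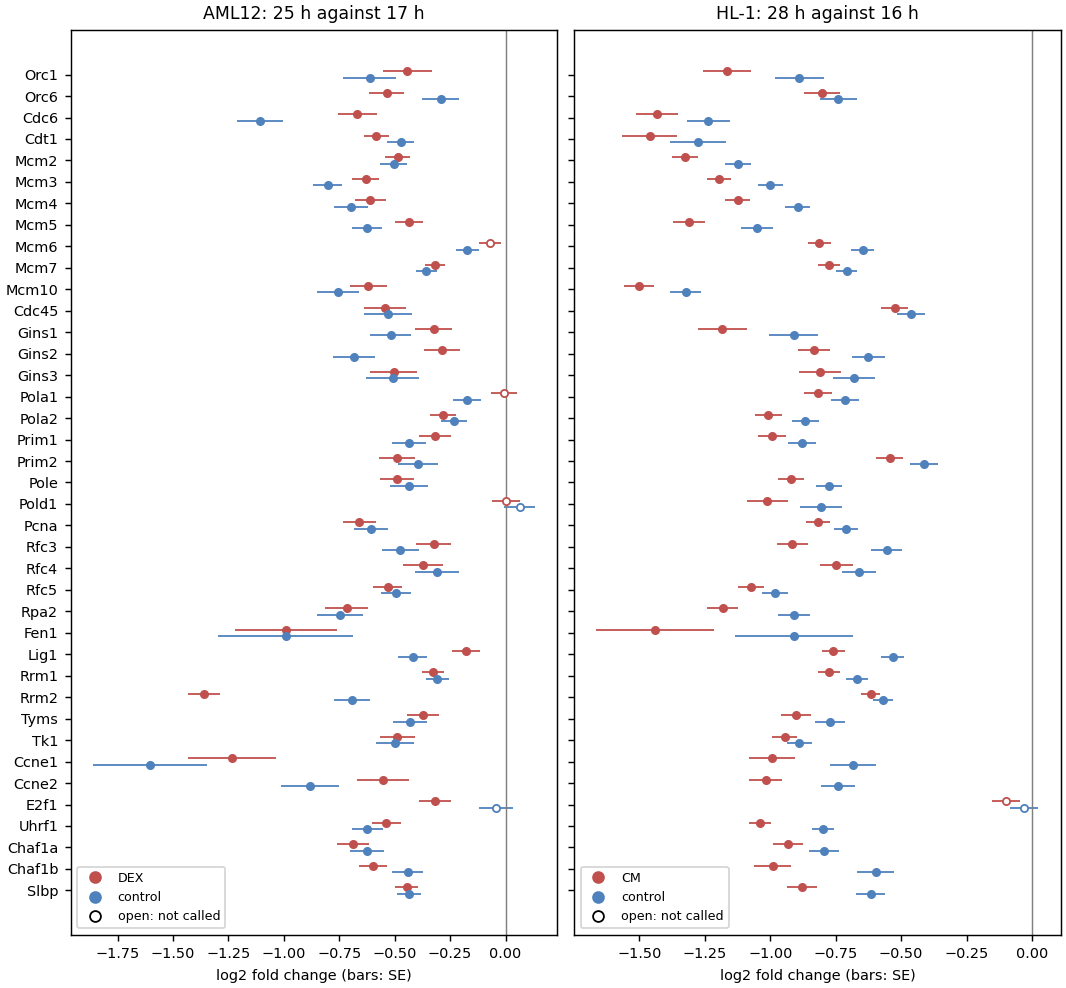
Log2 fold change of each of the 39 genes between the later and the earlier time, in AML12 (25 h against 17 h, left) and HL-1 (28 h against 16 h, right), with bars of 1 SE; red is the treated and blue the control group, and open points did not pass an adjusted p of 0.05. Nearly all points lie left of 0, with Pold1 and E2f1 closest to it in AML12 control cells, Pold1, Pola1 and Mcm6 in DEX cells, and E2f1 in HL-1.

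In HL-1 cells the replication genes were also lower at the later time, 28 h against 16 h. In CM cells 38 of the 39 were lower at 28 h and 0 higher, where 32.9% of all genes were called lower, with a median of -0.94. In control cells 38 were lower and 0 higher, where 31.3% of all genes were called lower, with a median of -0.77. Mcm10 had the largest drop in both groups. In CM cells it had 28.3, 31.6, 25.5 and 25.1 CPM at 28 h, against 77.9, 77.3, 82.0 and 76.2 CPM at 16 h (-1.50 ± 0.06). In control cells it had 30.2, 29.4, 29.0 and 28.3 CPM at 28 h, against 77.2, 72.1, 69.9 and 73.6 CPM at 16 h (-1.32 ± 0.06). The times were far apart, with no overlap. Of 12 tested markers of cell types 8 were higher and 1 lower at 28 h in each group. Over all 14450 tested genes 9453 in CM cells and 9071 in control cells were called in either direction. The bile duct marker Krt19 changed by 1.95 ± 0.05 in CM cells and 1.82 ± 0.05 in control cells, the cardiomyocyte marker Des by 0.63 ± 0.06 and 0.73 ± 0.06, and the mesenchymal marker Col1a1 by 0.94 ± 0.09 and 0.82 ± 0.09. The marker called lower was the cardiomyocyte gene Gja1 in CM cells (-0.13 ± 0.03) and Ryr2, under 1 CPM, in control cells (-1.92 ± 0.50). Gja1 in control cells (0.01 ± 0.03) and Ryr2 in CM cells (-0.71 ± 0.42) were not called. The mesenchymal marker Vim was called in neither group (0.05 ± 0.04 in both). The bile duct list summed to 293 to 349 CPM at 28 h, against 104 to 123 CPM at 16 h, in CM cells, and to 295 to 320.3 CPM at 28 h, against 105 to 127 CPM at 16 h, in control cells. Their part in the lower replication values was not tested.

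Licensing genes led the HL-1 drop, with medians of -1.18 in CM cells and -0.95 in control cells, and Cdt1 (-1.46 ± 0.11 and -1.28 ± 0.11) and Cdc6 (-1.43 ± 0.08 and -1.24 ± 0.08) at the lower end of that role. The smallest called drops were those of Cdc45 (-0.52 ± 0.05 in CM cells) and Prim2 (-0.41 ± 0.05 in control cells). E2f1 alone was not called. It had 50.4, 42.6, 46.7 and 48.8 CPM in CM cells at 28 h, against 51.0, 50.6, 49.2 and 50.7 CPM at 16 h, and 46.2, 49.5, 48.9 and 47.9 CPM in control cells at 28 h, against 49.3, 49.2, 52.8 and 45.2 CPM at 16 h. The ranges overlapped in both, at -0.10 ± 0.05 (95% interval -0.21 to 0.01) and -0.03 ± 0.05 (-0.14 to 0.08). Of the 69 pathway genes tested outside the 39, 57 were lower at 28 h in CM cells and 57 in control cells, while 7 and 6 were higher. Over all 14450 tested genes 32.9% and 31.3% were called lower in these groups, and 9453 and 9071 were called in either direction.

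At 16 h the replication genes of HL-1 cells in conditioned medium lay near the level of cells in control medium. None of the 39 was called, higher or lower, where 0.83% of all genes were called higher and 1.2% lower; without adjustment 6 passed a p of 0.05, where 11% of all genes did, and DESeq2 called 1 and limma-voom 0. Without control 16 h replicate 3 the count was again 0. The log2 fold changes ran from -0.13 for Tk1 to 0.21 for Fen1 with a median of 0.06, and 32 of the 39 lay above 0, where 52% of all genes did. In 8 genes the 4 CM libraries all lay above the 4 controls, where 3.28% of all genes did so. These were Cdc6, Mcm2, Mcm3, Mcm4, Mcm6, Lig1, Uhrf1 and Chaf1b, and in Rrm2 the 4 CM libraries all lay below, as in 3.52% of all genes. Over the 39 genes the 95% intervals lay between -0.23 and 0.61, with the upper bound set by the low-count Fen1. Role medians ran from -0.02 for nucleotide supply to 0.11 for licensing, in which 9 of 10 genes lay above 0, and 0.13 for the chromatin genes, in which 4 of 4 did.

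Uhrf1 came closest to a call. It had 307, 329, 314 and 337 CPM in CM cells, against 274, 293, 294 and 302 CPM in control cells at 16 h. The lowest CM library was just above the highest control, and the fold change of 0.15 ± 0.04 had an adjusted p of 0.0589. DESeq2 called it (adjusted p = 0.0369), as did the fits with total counts only (0.0389) and without the filter on low counts (0.0231). The fit with the replicate number as a block called it too (adjusted p = 0.0443). Chaf1b had 39.5, 41.1, 40.5 and 40.7 CPM in CM cells, against 35.6, 36.3, 32.6 and 36.0 CPM in control cells, also with every CM library above the controls, at 0.20 ± 0.07 (adjusted p = 0.153). Mcm3 had 303, 313, 298 and 305 CPM in CM cells, against 270.1, 281, 273 and 290.03 CPM in control cells, again without overlap, at 0.13 ± 0.05 (adjusted p = 0.188). Rrm2 had 774, 767, 776 and 754 CPM in CM cells, against 794, 803, 787 and 808 CPM in control cells, where every CM library lay under the controls by a small margin (-0.06 ± 0.04, adjusted p = 0.66). Pcna had 343, 351, 339.6 and 347 CPM in CM cells, against 343, 346, 341 and 348 CPM in control cells, and these ranges coincide (0.00 ± 0.05, 95% interval -0.09 to 0.10).

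**Figure D5:**
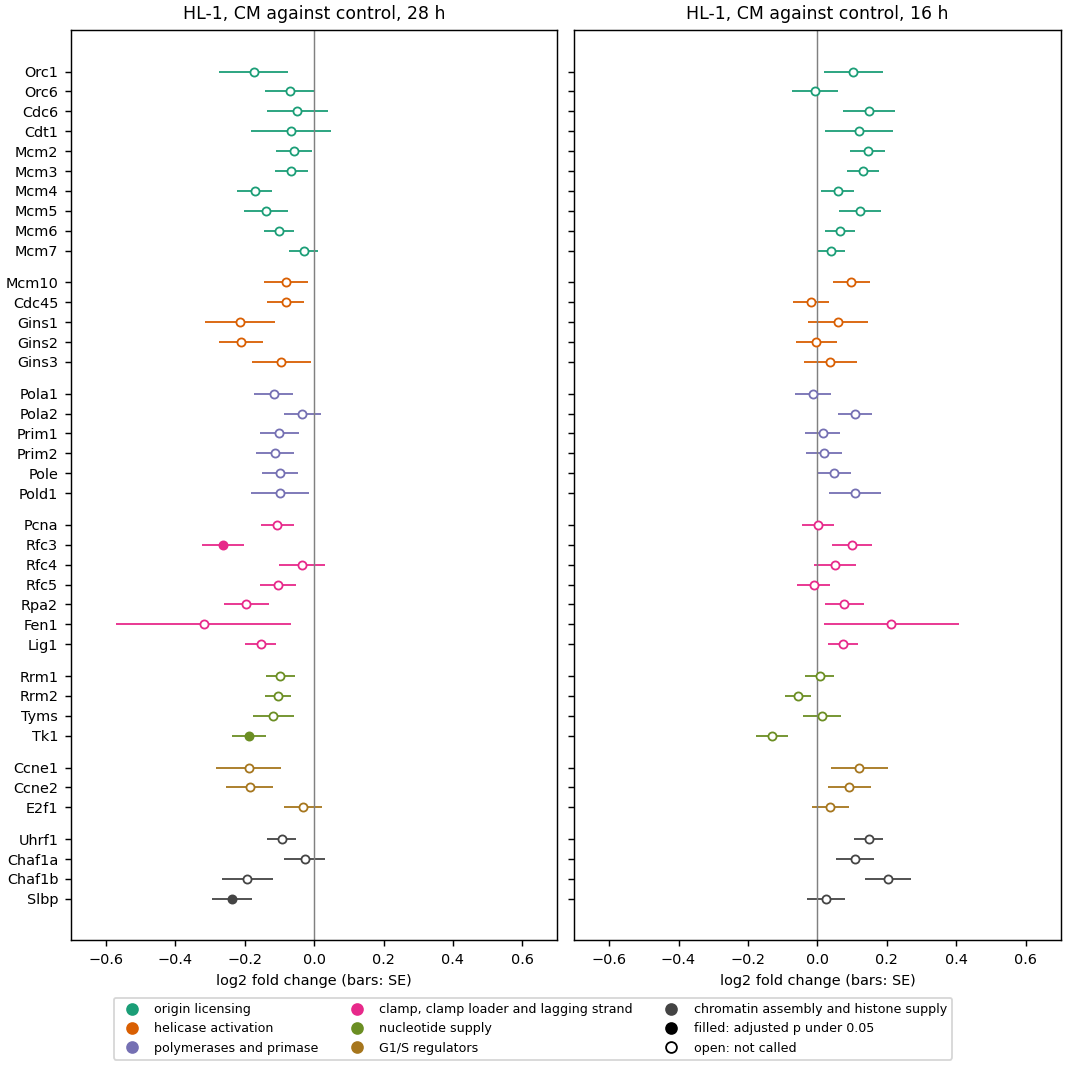
Log2 fold change of each of the 39 genes in CM against control HL-1 cells at 28 h (left) and 16 h (right), with bars of 1 SE (edgeR's quasi-likelihood fit, n = 4 a group); filled points passed an adjusted p of 0.05. At 16 h no point is filled and most lie right of 0; at 28 h all lie left of 0, and Rfc3, Tk1 and Slbp are filled. The axis covers a smaller range than that of the AML12 plot.

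At 28 h 3 of the 39 genes fell in CM cells and 0 rose, where 1.22% of all genes were called lower. All 39 fold changes lay below 0, where 54% of all genes did, with a median of -0.10, a 0.931-fold level. Rfc3, the clamp loader subunit, had 38.1, 40.7, 34.1 and 33.1 CPM in CM cells, against 41.0, 42.8, 44.4 and 47.1 CPM in control cells at 28 h. No CM library reached the lowest control, and the fold change was -0.26 ± 0.06 (adjusted p = 0.019). Slbp had 53.5, 55.3, 53.6 and 45.6 CPM in CM cells, against 62.9, 64.9, 59.9 and 57.4 CPM in control cells, again without overlap, at -0.24 ± 0.06 (adjusted p = 0.0298). Tk1 had 99.3, 104, 90.6 and 98.9 CPM in CM cells, against 109, 114, 107 and 118 CPM in control cells, also apart, at -0.19 ± 0.05 (adjusted p = 0.047). Fen1 had the lowest fold change of the 39 without a call, at -0.32 ± 0.25, with 1.31, 2.25, 1.12 and 1.02 CPM in CM cells, against 1.66, 2.25, 1.22 and 2.08 CPM in control cells. Those ranges overlapped, and the 95% interval was -0.84 to 0.20. Role medians ran from -0.19 for the regulators of S phase entry to -0.07 for licensing.

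These 3 calls depended on single libraries. Over the 8 fits without 1 library each, Rfc3 was lost in 4, Slbp in 5 and Tk1 in 6, with adjusted p up to 0.0971, 0.140 and 0.213. Without CM 28 h replicate 3 none of the 39 was called, and without CM 28 h replicate 2 the count was 8, with Mcm4, Lig1, Ccne1, Gins1 and Rpa2 added. CM 28 h replicate 2 was the highest of its group in 32 of the 39 genes and replicate 3 the lowest in 21. Mcm4 had 117, 134, 105 and 109.97 CPM in CM cells, against 135, 132, 127 and 131 CPM in control cells, where only replicate 2 of the CM libraries reached the controls (-0.17 ± 0.05, adjusted p = 0.084). Gins2 and Ccne2 also had all 4 CM libraries below the controls without a call, which makes 5 of 39 genes, where 4.64% of all genes did so. The CM libraries were deeper than the controls, and with all libraries thinned to the lowest total of the line 2 of the 39 were called.

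The CM effect did not differ between the times for any of the 39 genes by the test of the difference, in which 0.104% of all genes were called higher and 0.173% lower. All 39 differences lay below 0, where 55.4% of all genes did, with a median of -0.18. With unadjusted p under 0.05 17 of the 39 passed, where 6.73% of all genes did, DESeq2 called 2 and limma-voom 0, and the fit without the filter on low counts called 5. The lowest adjusted p was that of Rfc3, at -0.36 ± 0.08 (adjusted p = 0.062), with 68.2, 65.5, 70.9 and 71.1 CPM in CM cells, against 65.6, 66.0, 61.1 and 64.5 CPM in control cells at 16 h and the values above at 28 h. Next came Uhrf1 (-0.24 ± 0.06, adjusted p = 0.102) and Chaf1b (-0.39 ± 0.10, adjusted p = 0.133). By group mean all 39 genes were lowest in CM cells at 28 h, and 32 were highest in CM cells at 16 h and 7 in control cells at 16 h. The share of all genes with these orders was not computed.

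Of the 69 pathway genes outside the 39 that were tested in HL-1, Fbxo5, an inhibitor of the anaphase-promoting complex, alone was called at 16 h (-0.22 ± 0.05, adjusted p = 0.00728), and none was called at 28 h, where 20 passed an unadjusted p of 0.05, as did 12.7% of all genes. Of the CDK inhibitors Cdkn1a stood at -0.10 ± 0.04 at 16 h and -0.11 ± 0.04 at 28 h, neither called. Among cell type markers of HL-1, Tnnt2 rose (0.70 ± 0.06 at 16 h and 0.65 ± 0.06 at 28 h) and Gja1 (-0.21 ± 0.03 and -0.35 ± 0.03) and Col3a1 (-0.28 ± 0.04 and -0.28 ± 0.04) fell in CM cells. The immune marker Cd68 had every CM library above the controls at 16 h without a call (0.63 ± 0.17, adjusted p = 0.0528). At 28 h Cd68 stood at -0.0038 ± 0.16, also not called. The mesenchymal markers summed to 7863 to 8752 CPM in CM cells and 8502 to 9037 CPM in control cells at 28 h, and to 7049.7 to 7673 CPM in CM cells and 6943 to 8092 CPM in control cells at 16 h. The bile duct marker Epcam and the hepatocyte marker Alb were at 0 counts in all HL-1 groups, and Apob rose at 28 h (0.53 ± 0.13). Their part in the replication values was not tested.

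Levels per exon kilobase compare the 39 genes with each other. The length is the union of all annotated exons of a gene, such as 2771 bases for Rrm2 and 11012 for Rrm1. The order of genes therefore also depends on which exons are annotated. In AML12 control cells at 17 h Pcna was highest, at 51.0 ± 2.10 CPM per kilobase (SD, n = 4), followed by Mcm7 at 40.7 ± 1.40 and Rrm2 at 25.9 ± 1.74, and Ccne1 (0.695 ± 0.129) and Fen1 (0.540 ± 0.206) were lowest, within each other's spread. For Fen1, 84.2% of the exon bases lie over genes on the other strand, and the part of this overlap in its level was not tested. In DEX cells at 17 h Rrm2 was second, at 78.1 ± 3.92 against 80.4 ± 6.20 for Pcna, and the ranges of these genes overlapped. In HL-1 cells Rrm2 was highest in every group, at 277 ± 3.64 CPM per kilobase in CM cells and 288 ± 3.43 in control cells at 16 h, followed by Pcna at 144 ± 2.14 and 144 ± 1.32. Across the 39 genes the log2 levels of HL-1 control cells at 16 h and AML12 control cells at 17 h had a Pearson's r of 0.847 and a Spearman's rho of 0.843, as a description over genes that share length and base composition.

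All 39 genes stood higher in HL-1 control cells at 16 h than in AML12 control cells at 17 h, by a median ratio of mean CPM of 3.27. This ratio was not computed for all genes, so the count of 39 has no background beside it and is not a trait shown to be particular to them. The ratios ran from 1.19 for Chaf1b and 1.22 for Pola2 to 11.1 for Rrm2 and 12.4 for Ccne1. Ccne1 had 23.0 ± 1.43 CPM in HL-1 control cells and 1.85 ± 0.345 CPM in AML12 control cells, and Ccne2 54.6 ± 4.57 and 5.83 ± 0.802 CPM in these groups (mean ± SD, n = 4 each). The lines were counted and scaled in separate tables with different gene lists, so these ratios were not tested, and line and table cannot be told apart.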

How the data were processed

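RNA was extracted with TRIzol and libraries were made with the NEBNext Ultra II kit, per the labels' protocols. FastQC 0.11.8, STAR and the builds mm10 and GRCm38 are named in the submitters' processing notes; no source used here names the tool that counted reads, whether it used strand, or the release of its annotation (not given in the sources used here). The authors deposited raw read counts per gene, in 1 table for each line, and every sample column was matched to its label. All libraries were kept, and genes with low counts were filtered out before testing, as described below.

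The 39 members, their roles, the pathway lists and the marker lists were chosen with earlier results of these data known. All 39 members are named in the treated against control comparisons; pathway genes were eligible by having the smallest p of their list, up to 4 in each comparison. In the comparisons of times, the named members are the largest and the smallest changes of a role and those not called.

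Each line was fitted separately with edgeR 4.0.16 (R 4.3.3): low counts were filtered by group, libraries were scaled by TMM, and a quasi-likelihood model with 1 mean for each of the 4 groups was fitted to all 16 libraries of the line. P-values were adjusted by Benjamini-Hochberg over all genes tested and called under 0.05. The SE and the 95% intervals are Wald values from this fit. Levels are CPM on the TMM-scaled library sizes, and levels per length divide them by the exon bases of a gene in GENCODE M21, which may not be the annotation that was counted. A library held 15.0 M to 19.3 M counts in all, and members at about 1 CPM, Fen1 and Ccne1 in AML12, have the widest intervals. The script was tested on simulated counts with known fold changes.

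Alternatives were DESeq2 1.42.0, limma-voom (limma 3.58.1), RLE size factors, total counts only, no filter, a replicate block, each library left out, fits to the compared libraries alone, and, added after the data were seen, thinning to the lowest total. The deviations of same-numbered libraries from their group means correlated only weakly, between -0.12 and 0.12, so the numbers were not used as pairs. In DEX against control at 25 h, replicates 1, 2 and 3 correlated best with their own number, at 0.058, 0.078 and 0.068.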

Additional observations from a re-analysis of the deposited data

Results flagged for a closer look

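In 23 of 312 groups of 4 libraries (7.37%), the highest or lowest library stood apart from the others by a gap above Dixon's critical value at the 95% level, where chance flags about 1 group in 20. DEX 25 h replicate 4 of AML12 carried 4 of these, all high. It had 21.6 CPM for Cdc45, where the other 3 libraries had 14.9 to 15.7. For Prim1 it had 44.1 CPM, where the others had 33.4 to 34.6, for Pcna 147 CPM, where they had 112 to 117, and for Rrm2 104 CPM, where they had 76.2 to 79.0. In the same group replicate 3 was low for Gins1, at 14.5 CPM where the others had 15.5 to 15.7.

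AML12 control 17 h replicate 1 was high for Mcm3 (91.0 CPM, others 80.0 to 81.5), Mcm7 (189 CPM, others 176 to 178) and Fen1 (2.05 CPM, others 1.03 to 1.10), and replicate 4 was low for Ccne1 (1.34 CPM, others 1.99 to 2.08). Among the AML12 controls at 25 h, replicate 1 was high for Rpa2 (9.77 CPM, others 7.87 to 8.19) and Chaf1b (23.0 CPM, others 21.2 to 21.5), and replicate 4 was low for Mcm4 (25.9 CPM, others 30.3 to 30.6).

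In HL-1, CM 28 h replicate 2 was high for Gins2 (22.2 CPM, others 20.9 to 21.0), CM 28 h replicate 4 for Pold1 (35.8 CPM, others 31.7 to 32.3) and CM 16 h replicate 1 for Prim2 (67.8 CPM, others 64.8 to 65.2). HL-1 control 28 h replicate 2 was high for Ccne1 (15.7 CPM, others 13.7 to 13.98) and Chaf1a (71.1 CPM, others 61.5 to 63.0) and low for Gins3 (14.0 CPM, others 16.9 to 17.5), and replicate 3 was low for Uhrf1 (162 CPM, others 168.6 to 168.7). HL-1 control 16 h replicate 1 was high for Rfc4 (38.1 CPM, others 34.2 to 34.6) and Ccne2 (61.4 CPM, others 51.6 to 52.9) and low for Fen1 (2.96 CPM, others 3.48 to 3.57), and replicate 3 was low for Prim2 (59.3 CPM, others 65.98 to 67.0).

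The DEX effect in AML12 differed between 25 h and 17 h, by the test of the difference, for Cdc6 (0.44 on the log2 scale), Gins2 (0.40) and Rrm2 (-0.67).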

How the results depend on the processing

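Of the 624 member values recomputed under 16 other settings, 614 kept their direction and their side of the threshold for DEX against control at 17 h and 611 at 25 h, and 582 and 592 did so for CM against control at 16 h and 28 h. Counts that moved by over 1.5 times were these, and their cause was not tested unless a library is named. In the DEX effect of 25 h minus 17 h, 1 member had a larger effect with thinned counts, against 2 in the full data, and over the fits without 1 library each this count ran from 0 to 3 and that of smaller effects from 1 to 2. For CM at 16 h, 1 member was higher with DESeq2, 2 with no filter, 1 with the replicate block and 1 with total counts only, against 0. For CM at 28 h the members called lower ran from 0 to 8 and all genes called from 170 to 334 without 1 library each. For the CM effect of 28 h minus 16 h, 2 members were lower with DESeq2, 5 with no filter and 0 to 6 without 1 library each, against 0, and all genes called were 97 with no filter, against 40.

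Directions turned for values near 0. Other settings gave Cdc45 0.037 (thinned) and 0.031 (total counts only) in the AML12 difference of effects, and Pold1 in DEX cells over time -0.0011 (DESeq2, no filter and RLE), -0.0052 (thinned) and -0.0019 (total counts only). For CM at 16 h they gave Gins2 0.0015 (limma-voom) and 0.0038 (no filter), Pcna -0.0043 (DESeq2 and RLE) and Rrm1 -0.000155 (DESeq2) and -0.000145 (RLE). Without 1 library each, the log2 values ran as follows. In AML12 they were -0.096 to 0.020 for E2f1 in control cells over time, -0.15 to 0.038 for Cdc45 in the difference of effects and -0.051 to 0.056 for Pold1 in DEX cells over time. For CM at 16 h they were -0.047 to 0.0040 for Cdc45, -0.00036 to 0.064 for E2f1, -0.066 to 0.031 for Gins2, -0.0035 to 0.053 for Gins3, -0.043 to 0.042 for Orc6, -0.014 to 0.0073 for Pcna, -0.059 to 0.017 for Pola1, -0.018 to 0.040 for Prim1, -0.029 to 0.033 for Prim2, -0.039 to 0.0079 for Rfc5, -0.024 to 0.022 for Rrm1, -0.022 to 0.051 for Slbp and -0.0086 to 0.022 for Tyms. For CM at 28 h they were -0.18 to 0.014 for Cdc6, -0.12 to 0.0067 for Cdt1, -0.062 to 0.037 for Chaf1a, -0.065 to 0.013 for E2f1, -0.12 to 0.00051 for Mcm2, -0.067 to 0.0079 for Mcm7 and -0.078 to 0.019 for Rfc4.

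With the replicate number as a block, 37 members were called higher under DEX at 17 h and 37 at 25 h, 1 higher (Uhrf1, adjusted p = 0.0443) and 0 lower under CM at 16 h and 3 lower at 28 h, while 2 had a larger and 1 a smaller DEX effect at 25 h. The labels link same-numbered libraries by number only, and their deviations from the group means correlated between -0.12 and 0.12 over all comparisons. Some libraries correlated best with their own number and others did not. The members at about 1 CPM in AML12, Fen1 and Ccne1, lost their calls at 25 h in 8 and 3 of 16 settings. The parts of depth and of overlapping genes in these low counts were not tested. The 4 libraries of a group may be technical replicates, and the strand setting, which bears on Fen1, Gins2 and Chaf1a, is unknown.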
